A study of Mus musculus with 2 samples.

Results

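The fetal Leydig nuclei were 600 of the 7492 nuclei kept from 9833 barcodes of the mouse testis at E14.5. Each kept nucleus had 2000 to 50000 UMIs (unique molecular identifiers, 1 per captured RNA molecule), under 10% mitochondrial UMIs and over 500 transposase cuts in peaks. The members were selected on RNA: the kept nuclei were ranked by the share of their UMIs in *Cyp11a1*, *Cyp17a1*, *Hsd3b1*, *Hsd3b6*, *Lhcgr*, *Scarb1* and *Cyp11b1*, and the top 600 were taken. The levels of those genes are therefore a description of the choice and not a result.

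Nuclei of whole testes were profiled with the 10x multiome assay, which reads RNA and open chromatin from the same nucleus, as 1 RNA library and 1 ATAC library with no replicate. Per the study's methods the embryos carried the *Nr5a1*-cre transgene, active in steroidogenic and supporting cells, and a Rosa-tdTomato reporter, which all nuclei compared here share. The number of embryos pooled was not given in the sources used here, and a contribution of the transgene to the *Nr5a1* counts was not tested. Since nuclei of 1 library are not replicates, no test between animals was possible, no p-value is given, and every interval is exact at 95% and covers counting error only.

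Fetal Leydig cells are the androgen-making cells of the fetal testis and lie in the interstitium between the cords. Luteinising hormone (LH) acts through a receptor that raises cyclic AMP, cholesterol is taken up or made, STAR moves it into mitochondria, and CYP11A1, HSD3B1 and CYP17A1 turn it into androgens. The nuclear receptor NR5A1 (SF-1) drives many of these genes and binds DNA as a monomer, at the letters AAGGTCA, most often preceded by TC. The cells are thought to arise from interstitial progenitors that carry NR2F2 and respond to hedgehog signals.

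Because the choice used RNA alone, the chromatin of the members was not part of it, and the sequences of the regions that were most open in them are given first. The 6 peaks with the largest ratio of cut levels between the members and all other kept nuclei lay outside promoters, and 2 of them are shown here as the 300 bases at the peak centre (GRCm38, plus strand). The first, chr9:28576238-28576537, lay in an intron of *Opcml*, a neural adhesion protein gene. The second, chr5:75428110-75428409, was intergenic at 146656 bp from the nearest coding start, that of *Kit*, the stem cell factor receptor. Capitals mark AAGGTCA on either strand.
Opcml intron: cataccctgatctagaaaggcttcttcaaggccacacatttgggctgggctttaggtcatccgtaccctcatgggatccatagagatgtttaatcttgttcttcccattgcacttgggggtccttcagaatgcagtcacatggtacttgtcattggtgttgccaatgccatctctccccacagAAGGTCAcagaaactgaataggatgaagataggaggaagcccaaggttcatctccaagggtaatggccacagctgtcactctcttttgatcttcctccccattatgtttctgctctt
Kit, distal: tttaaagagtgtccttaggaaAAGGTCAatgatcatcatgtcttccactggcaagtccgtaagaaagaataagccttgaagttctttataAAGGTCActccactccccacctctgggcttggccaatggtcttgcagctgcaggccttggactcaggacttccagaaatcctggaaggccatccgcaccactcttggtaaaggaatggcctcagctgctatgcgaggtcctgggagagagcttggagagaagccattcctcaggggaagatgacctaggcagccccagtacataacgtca
The *Opcml* window held the letters once and the *Kit* window 2 times. They were shown because they hold the letters, and the windows of the other 4 leading peaks held none. A match is a description of the letters and not a bound site.

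The longer motif TCAAGGTCA, which contains the shorter one, is typical of NR5A1 but is also the classic site of the ERR receptors, of which *Esrrg* is one, so the letters do not tell these factors apart. A chromosome was left out before the peaks with this motif were ranked, so a peak on it with a larger ratio would not be shown. Matches are in capitals, as TGACCTTGA where they lie on the minus strand. Among the remaining intronic or intergenic peaks that held TCAAGGTCA, the 4 with the largest ratio are shown as 100 bases around the match. They lay at chr19:10122036-10122135 near *Fads2*, a fatty acid desaturase gene, at chr14:28123841-28123940 in an intron of *Erc2*, at chr2:132901777-132901876 near *Lrrn4*, and at chr13:38879419-38879518, in an intron, where the nearest coding start, that of *Slc35b3*, was 80965 bp away.
near Fads2: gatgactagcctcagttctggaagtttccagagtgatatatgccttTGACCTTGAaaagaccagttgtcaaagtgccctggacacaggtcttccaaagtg
Erc2 intron: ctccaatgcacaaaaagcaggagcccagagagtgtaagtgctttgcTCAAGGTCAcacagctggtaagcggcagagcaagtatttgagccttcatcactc
near Lrrn4: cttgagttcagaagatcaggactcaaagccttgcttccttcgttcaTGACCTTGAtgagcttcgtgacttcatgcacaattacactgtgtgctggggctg
Chromosome 13 intron: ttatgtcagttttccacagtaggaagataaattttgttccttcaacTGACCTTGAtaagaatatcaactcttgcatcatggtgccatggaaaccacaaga
The peaks around these matches had 40, 37, 33 and 34 cuts in the members, in the order shown, against 68, 70, 68 and 77 in the other kept nuclei, although the others were 6892 nuclei with 26996380 cuts in peaks against 1529964 in the members. As ratios of fragments relative to each set's total these were 10.0 (5.57 to 17.6), 8.83 (4.81 to 15.7), 7.90 (4.18 to 14.3) and 7.75 (4.19 to 13.8), values that follow from how the peaks were picked.

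The promoter of *Cyp11a1*, the side chain cleavage enzyme that starts steroid synthesis, is shown as the 250 bases before its RefSeq start (chr9:58014702-58014951, plus strand), since a peak over it was the most member-biased of the rule gene promoters. The same window of *Lhcgr*, the luteinising hormone receptor, lay at chr17:88792015-88792264 on the minus strand, and that of *Insl3*, the Leydig hormone of testis descent, at chr8:71689002-71689251 on the plus strand.
Cyp11a1: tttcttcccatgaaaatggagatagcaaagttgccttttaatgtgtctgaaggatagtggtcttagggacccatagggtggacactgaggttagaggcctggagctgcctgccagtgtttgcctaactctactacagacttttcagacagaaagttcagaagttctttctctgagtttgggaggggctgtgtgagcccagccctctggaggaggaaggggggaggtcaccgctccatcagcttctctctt
Lhcgr: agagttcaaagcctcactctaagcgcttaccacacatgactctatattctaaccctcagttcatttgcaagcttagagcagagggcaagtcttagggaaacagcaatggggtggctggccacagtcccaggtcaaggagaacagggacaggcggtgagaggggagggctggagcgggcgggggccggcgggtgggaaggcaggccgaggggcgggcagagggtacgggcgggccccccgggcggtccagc
Insl3: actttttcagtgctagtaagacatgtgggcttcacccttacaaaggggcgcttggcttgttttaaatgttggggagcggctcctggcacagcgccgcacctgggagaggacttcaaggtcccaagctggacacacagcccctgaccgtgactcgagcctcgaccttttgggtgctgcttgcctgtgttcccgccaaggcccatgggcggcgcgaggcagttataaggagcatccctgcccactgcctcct
None of these windows held AAGGTCA on either strand, which says only that these letters are not there. The letters were in 4.08% of the 32851 promoters of the RefSeq table (GRCm38) over the same 250 bases, and TCAAGGTCA in 0.387%. The promoters of *Star*, *Cyp17a1*, *Nr5a1*, *Scarb1* and *Cyp11b1* are not shown.

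The members had a median of 9629 UMIs and 3502 genes per nucleus, against 8071 UMIs and 3192 genes in the other kept nuclei, but fewer cuts in peaks (2023 against 3416). Their fragments were alike in quality: the median length was 113 bp against 116 bp, and the enrichment of cuts at gene starts was 22.5 against 23.4. Of the 449 nuclei with the highest doublet score (Scrublet), 14 were members, which is 2.33% of the members, against 6.31% of the other kept nuclei. Levels are given as CPM, the UMIs of a gene per 1000000 UMIs of a set of nuclei, and peak levels as cut CPM, the cuts per 1000000 cuts in peaks or, around gene starts, in all fragments of the set. For comparison, sets were ranked in the same way among the remaining nuclei by genes that include *Pdgfra*, *Tcf21* and *Wnt5a* (588 interstitial progenitor nuclei), by *Amh*, *Sox9*, *Dmrt1* and *Sox8* (506 Sertoli nuclei) and by *Ddx4*, *Dazl*, *Pou5f1* and *Nanos2* (518 germ nuclei). The Sertoli set also held the germ genes *Ddx4* (73.2 CPM) and *Dazl* (124 CPM), so it was not pure, and the germ nuclei serve below as the background level of Leydig genes. Free RNA and doublets can both add to that level, 32 germ nuclei (6.18%) had a top doublet score and the highest rule gene share in a germ nucleus was 0.452%. The parts of free RNA and doublets were not tested.

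The rank had no gap at the edge. The rule genes took a median of 0.737% of the UMIs of a member, 0.476% in the last member and 0.473% in the first nucleus left out, against a median of 0.0303% in the other kept nuclei. The 200 nuclei ranked just below had a median share of 0.384%, 14321 UMIs per nucleus, and 48 of them (24%) had a top doublet score. The nuclei just below the edge, which also held these transcripts, count among the other kept nuclei and lower the ratios of Leydig genes to them. For some genes the ratio without the 400 nuclei just below is given beside the first one. Those 400 were left out by the rule gene share, so a larger second ratio follows from the choice for genes that go with the rule genes. As follows from the choice, 490 of 600 members (81.7%) had a UMI of 5 rule genes and 73 had 6.

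As a description of the choice, *Cyp11a1* stood at 1427 CPM in the members against 79.9 in the other nuclei, *Cyp17a1* (17α-hydroxylase) at 2122 against 217, and *Hsd3b1* (3β-hydroxysteroid dehydrogenase) at 1215 against 68.5. *Lhcgr* stood at 1215 against 57.2 and *Scarb1*, the receptor that takes cholesterol from lipoproteins, at 1604 against 100.6. *Hsd3b6*, the isoform of adult Leydig cells, had 1 UMI in all members. With each gene left out of the ranking in turn, 566 to 600 of the members were chosen again and the ratio of the gene left out was 16.8 for *Cyp11a1*, 9.21 for *Cyp17a1*, 16.0 for *Hsd3b1*, 18.3 for *Lhcgr*, 13.3 for *Scarb1* and 24.9 for *Cyp11b1*. *Hsd3b6*, with 1 UMI, had a ratio of 1.42 (0.0320 to 10.58), so the other 6 rule genes, but not this one, were high in nuclei chosen without them.

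Leydig transcripts were also counted in nuclei that should lack them. *Cyp17a1* had a UMI in 75.9% of germ nuclei and *Cyp11a1* in 25.9%, at a median of 14287 UMIs per nucleus. After each nucleus was thinned to 2000 UMIs, the shares were 18.3% and 4.44% in germ nuclei against 97.3% and 93.5% in members.

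**Figure D1:**
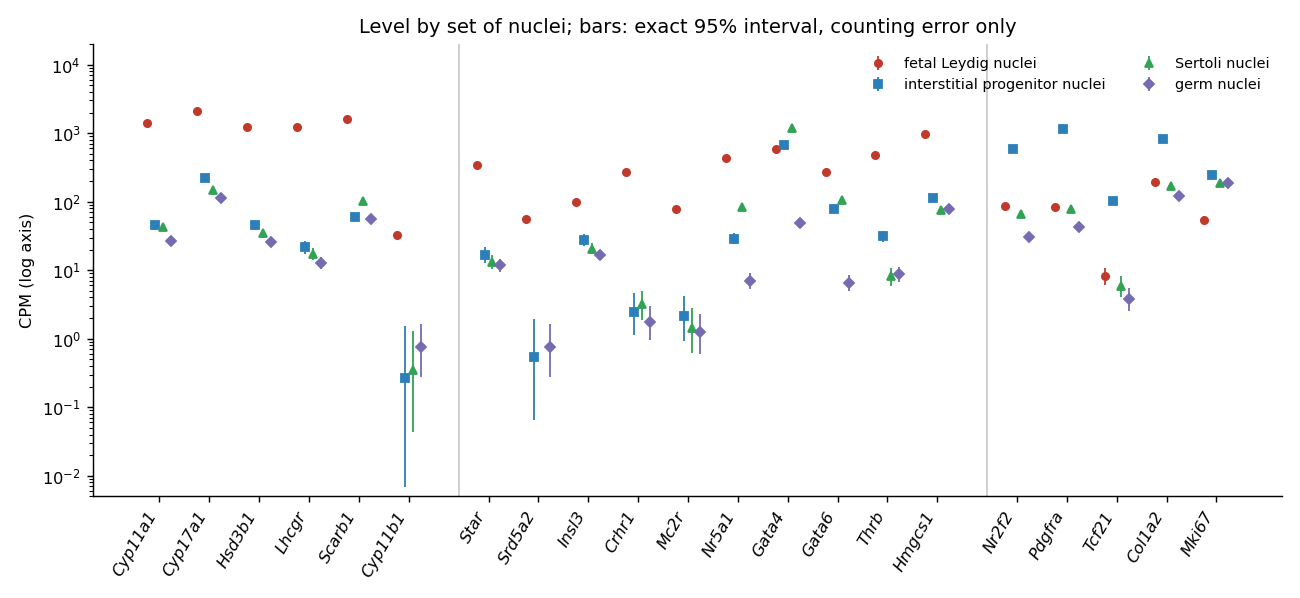
Level of each gene (CPM, log axis) in the fetal Leydig, interstitial progenitor, Sertoli and germ nuclei, with exact 95% intervals for counting error and with levels of 0 not drawn. The left block holds the rule genes, which chose the members. In the right block, *Pdgfra* and *Tcf21* were among the genes that chose the progenitor nuclei, so their levels in that set follow from the choice. *Star* stood at 341 CPM in the Leydig nuclei and at 16.8, 13.3 and 11.8 CPM in the other sets, whereas *Gata4* stood at 589 CPM in the Leydig and 664 CPM in the progenitor nuclei.

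Over all 15277 genes with at least 100 UMIs, 1074 (7.03%) were at least 2-fold higher in the members than in the other kept nuclei on the log2(CPM + 1) scale and 3362 (22.0%) at least 2-fold lower. The count of lower genes was 1851 with a pseudocount of 5 and 2076 with 900 members. The median gene was at a log2 ratio of -0.20. Against the interstitial progenitor nuclei, 12.8% of 9154 genes were higher and 13.7% lower, with a median of 0.03. These shares are the background for the lists that follow, and the lists are described by counts, without a test.

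Of the other genes of steroid synthesis, 8 of 16 tested were higher in the members and 1 was lower. *Star*, which feeds cholesterol to the mitochondrion, stood at 341 CPM against 25.2, a ratio of 13.5 (12.7 to 14.4), or 22.1 without the 400 nuclei just below. *Fdx1*, the ferredoxin that gives electrons to CYP11A1, was 16.0-fold higher and its reductase *Fdxr* 5.40-fold. *Por*, which gives electrons to CYP17A1, was 5.25-fold higher, and *Cyb5b*, a cytochrome b5, 5.08-fold. *Hsd17b7*, which serves cholesterol synthesis too, was 7.75-fold higher and *Hsd17b12* 2.16-fold.

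*Srd5a2*, the 5α-reductase that makes dihydrotestosterone, had the largest ratio of the list. It stood at 55.1 CPM in the members against 1.71 in the other nuclei (ratio 32.3, 26.2 to 39.96, or 183 without the 400 nuclei just below) and 0.542 in the progenitors. *Srd5a1*, the other 5α-reductase, stood at 4.53 CPM against 4.55. A *Srd5a2* UMI was seen in 189 members (31.5%) and in 5 germ nuclei (0.965%), so the share lay above the germ level. *Hsd17b3*, which makes testosterone from androstenedione, went the other way: 17.8 CPM in the members, 134 in the other nuclei and 641 in the Sertoli nuclei, a ratio of 0.133 (0.110 to 0.1599) to the others. Among the members 27 (4.5%) had a *Hsd17b3* UMI, against 416 of 506 Sertoli nuclei (82.2%) and 17 germ nuclei (3.28%). *Cyb5a*, *Acbd3*, *Tspo* and *Stard3* had ratios of 1.59, 1.123, 0.879 and 0.710, inside the 2-fold limit.

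All 20 genes of cholesterol synthesis were at least 2-fold higher in the members, with a median log2 ratio of 2.90. *Hmgcs1*, which makes the HMG-CoA of the pathway, stood at 959 CPM against 117 (8.17-fold, 7.91 to 8.44). The largest ratios lay at *Lss* (lanosterol synthase, 14.9), *Mvd* (mevalonate decarboxylase, 12.02) and *Tm7sf2* (a sterol reductase, 10.1). Smaller ratios were those of *Sqle* (squalene epoxidase, 3.83) and *Ebp* (a sterol isomerase, 3.90). The 20 genes were also higher than in the progenitor nuclei, with a median log2 ratio of 3.02.

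Genes that import, store and move cholesterol moved less as a list, with 8 of 23 higher and 1 lower. *Gramd1b*, which carries cholesterol from the plasma membrane to the endoplasmic reticulum, stood at 7640 CPM against 434, a ratio of 17.6 (17.4 to 17.9). *Insig1* and *Scap*, which together sense sterols and retain or escort SREBP, were 5.23-fold and 4.19-fold higher, and *Srebf2*, the SREBP that drives synthesis and uptake, 2.35-fold. *Stard4* was 4.32-fold, *Lipe*, which frees cholesterol from its esters, 4.01-fold and the exporter *Abca1* 2.91-fold higher. *Abcg1*, another exporter, was the 1 lower gene, at 6 UMIs or 0.937 CPM against 14.8.

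**Figure D2:**
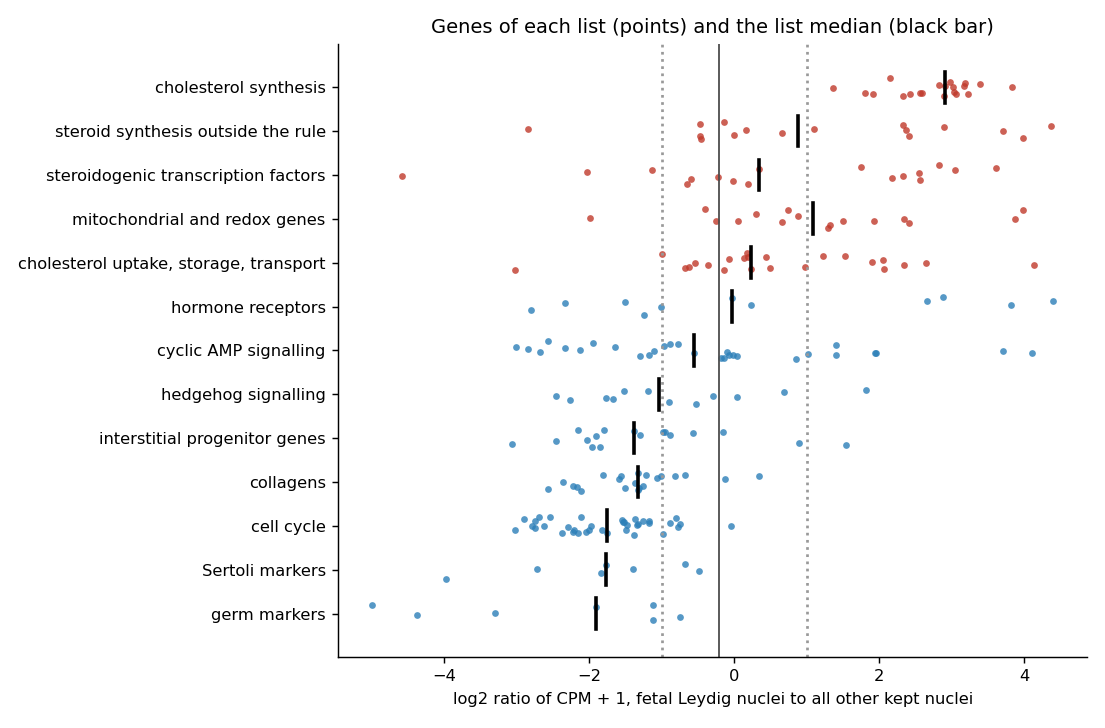
Log2 ratio of CPM + 1 between the fetal Leydig nuclei and all other kept nuclei for the tested genes of each list (points, red where the list median lies above 0 and blue where below; height within a row is random), with list medians as black bars, the median of all genes tested as a grey line and 2-fold limits as dotted lines. The points of cholesterol synthesis lie wholly to the right of the upper limit, and those of the cell cycle list wholly to the left of 0.

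Among hormone receptors, 4 of 11 tested were higher and 5 lower. *Crhr1*, the receptor of corticotropin-releasing hormone, stood at 267 CPM in the members, 11.7 in the other nuclei and 2.44 in the progenitors (ratio to the others 22.9, 21.04 to 24.8, or 133 without the 400 nuclei just below). *Mc2r*, the receptor of the adrenal-stimulating hormone ACTH, stood at 78.7 against 4.64 (17.0, 14.8 to 19.5, or 29.9 without those 400), and its partner *Mrap* was 11.8-fold higher. *Prlr*, the prolactin receptor, was 6.31-fold higher. A *Crhr1* UMI was found in 520 members (86.7%) and in 7 germ nuclei (1.35%), and a *Mc2r* UMI in 267 members (44.5%) and 8 germ nuclei (1.54%). *Fshr*, a Sertoli receptor, was at 5.62 CPM against 45.2, *Ednra*, an endothelin receptor, had a ratio of 0.198 and *Ghr*, the growth hormone receptor, of 0.3499.

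The cyclic AMP pathway, through which the receptors of LH, ACTH and corticotropin-releasing hormone signal, was split, with 7 of 29 genes higher and 11 lower. *Prkar2b*, a regulatory subunit of protein kinase A, stood at 4713 CPM against 272 (17.4-fold), while *Prkar1a* was 2.66-fold higher, *Prkar1b* had a ratio of 0.270 and *Prkar2a* stood at 35.7 against 40.8. Among phosphodiesterases, which break down cyclic AMP, *Pde8b* was 13.2-fold, *Pde10a* 3.92-fold and *Pde8a* 3.89-fold higher, whereas *Pde3b* and *Pde4b* had ratios of 0.117 and 0.130. Among adenylyl cyclases, which make it, *Adcy9* was 2.65-fold higher and *Adcy7* had a ratio of 0.155. Each of these enzymes thus had an isoform past the limit in either direction.

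Of the transcription factors known from steroid-making cells, 8 of 17 were higher and 3 lower. *Nr5a1* stood at 429 CPM in the members, 84.9 in Sertoli, 51.1 in all other and 29.0 in progenitor nuclei, with ratios of 8.40 (7.99 to 8.82) to the others and 14.8 (12.2 to 18.1) to the progenitors. *Thrb*, a thyroid hormone receptor, was 12.4-fold higher (20.1-fold without the 400 nuclei just below), the orphan receptors *Esrrg* and *Rora* 7.34-fold and 5.92-fold, *Cebpb* 7.19-fold, *Cited2* 5.21-fold, *Tbx3* 4.92-fold and *Gata6* 3.38-fold. *Gata4*, which acts with NR5A1 in several gonadal cells, stood at 589 against 594 CPM (0.992, 0.960 to 1.03). *Nr5a2*, the closest relative of *Nr5a1*, had 14 UMIs in the members, 2.19 CPM against 335 in germ nuclei. *Zfpm2*, a GATA cofactor, had a ratio of 0.457.

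Secreted and surface proteins linked to Leydig cells were mixed, with 7 of 16 higher and 6 lower. *Insl3* stood at 97.6 CPM against 24.3 (4.02, 3.66 to 4.41). An *Insl3* UMI was seen in 358 members (59.7%), 87 progenitor nuclei (14.8%) and 109 germ nuclei (21.04%), and after thinning in 20.3% of members and 2.90% of germ nuclei. *Kit* was 5.76-fold, *Ren1* (renin) 3.84-fold, the gap junction gene *Gja1* 2.98-fold, *Inha* and *Inhbb* (inhibin subunits) 2.86-fold and 2.21-fold, and *Vegfa* 2.43-fold higher. *Dlk1* had a ratio of 0.291, *Igf1* 0.315, *Pdgfa* 0.342 and *Itgb8* 0.196, so that some genes often called Leydig factors stood lower in the members than around them.

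Hedgehog signalling, by which Sertoli *Dhh* acts on the interstitium, had 6 of 12 tested genes lower. The pathway targets *Ptch1* (ratio 0.348) and *Gli1* (0.296) and the effector *Gli2* (0.179) were lower, and the coreceptor *Gas1* was at 0.428. *Cdon*, another coreceptor, was the 1 higher gene at 1091 CPM against 308 (3.54-fold). *Shh* fell below the minimum of 100 UMIs and was singled out after its values were seen: it had 45 UMIs in the members (7.02 CPM) and 23 in the other 6892 nuclei (0.316 CPM), with 0 in the progenitor set.

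Genes of interstitial progenitors were mostly lower, with 10 of 17 lower and 1 higher than in the other nuclei and a median log2 ratio of -1.39. *Nr2f2* stood at 87.2 CPM in the members, 304 in the other nuclei, 588 in the progenitors and 30.4 in germ nuclei. Its ratios were 0.287 (0.263 to 0.312) to the others and 0.148 (0.135 to 0.163) to the progenitors, a set chosen without it. A *Nr2f2* UMI was found in 39.2% of members, 93.9% of progenitor and 25.7% of germ nuclei, and after thinning in 13.5%, 67.9% and 4.25%. The members thus lay between the progenitors and the germ level. *Wt1* had a ratio of 0.117, *Lhx9* of 0.219, *Tcf21* of 0.225 and *Pdgfra* of 0.266 to the others. *Jag1*, a Notch ligand, was the 1 higher gene, at 234 CPM against 79.99 (2.93-fold).

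Collagen genes were lower in 17 of 21 cases, with a median log2 ratio of -1.33, and in 9 when 900 members were taken. *Col25a1* stood at 104 CPM against 621 (0.168) and *Col1a2*, a chain of the main fibrillar collagen, at 196 against 487 (0.402). *Col18a1*, a basement membrane chain, was the only one above 0, at 126 against 99.3. Cell cycle genes were lower in 31 of 37 cases, with a median of -1.75. *Kif11*, a spindle motor, had a ratio of 0.118, *Top2a* of 0.201 and *Mki67* of 0.246, and *Helb* alone lay near 1 at 0.963. *Cdkn1c*, the CDK inhibitor p57, was 5.42-fold higher (75.4 against 13.9 CPM), the 1 higher gene among 11 inhibitors and exit genes, of which 6 were lower. Against the progenitor nuclei, 1 of the 7 tested genes of this list was higher and 1 lower, with a median log2 ratio of 0.16. The list summed to 362 CPM in the members, 364 in the progenitors and 855 in germ nuclei.

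Mitochondrial and redox genes had 8 of 16 higher and 1 lower. Besides *Fdx1* and *Fdxr*, these included *Ephx1* (15.6-fold), an epoxide hydrolase, *Gsta4* (5.33-fold), a glutathione transferase, *Prdx3* (2.94-fold) and *Sod2* (2.58-fold), which remove peroxide and superoxide in mitochondria. *Aldh1a1*, a retinal dehydrogenase, stood at 932 CPM in the members, 854 in Sertoli nuclei and 38.2 in progenitors. *Ppargc1a*, a coactivator of mitochondrial genes, was lower, at 6.71 against 29.6.

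Adrenal-like steroid genes were present at low levels. *Cyp21a1*, the 21-hydroxylase of the adrenal cortex, stood at 15.3 CPM in the members against 1.05 (14.6, 10.7 to 20.01, or 23.1 without the 400 nuclei just below) and had a UMI in 44 members (7.33%) and 3 germ nuclei (0.579%). With *Mc2r* and *Mrap*, 3 of 5 tested genes of this list were higher, and *Hsd11b2*, which inactivates glucocorticoid, was lower at 0.422. *Cyp11b2*, aldosterone synthase, had 0 UMIs in the members, which bounds its level at 0.576 CPM.

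The markers of most other cell types were lower in the members. None of the 7 Sertoli, 7 germ, 7 endothelial, 5 surface epithelium or 4 contractile markers tested was higher, and 5, 6, 6, 5 and 3 of them were lower. Their summed levels in the members and in the others were 43.2 and 191 CPM for Sertoli, 33.2 and 443 CPM for germ, and 43.9 and 166 CPM for endothelial markers. *Sox9* was at 3.90 CPM and *Dazl* at 5.93 CPM in the members, neither of them at 0. Immune and erythroid markers stood apart less, with 2 of 6 and 2 of 7 lower and none higher. The erythroid list summed to 123 CPM in the members, 237 in the others, 111 in Sertoli and 187 in germ nuclei.

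Outside the rule, *Kcnip4*, a potassium channel partner, led the genes higher in the members on the log2(CPM + 1) scale, with 5422 CPM against 180 (30.2-fold, 29.6 to 30.8). *Fam129a*, a stress-response gene, stood at 2110 against 87.9 (24.0-fold), and *Hao2*, a peroxisomal hydroxyacid oxidase, at 176 against 7.99 (22.1-fold). Without the 400 nuclei just below, these ratios were 165, 114 and 100.1. The remaining leaders besides *Srd5a2* and *Crhr1* were transcripts with no named product. *6330411D24Rik* stood at 2751 CPM (21.7-fold), *8030451A03Rik* at 1896 (22.1-fold), *Gm4107* at 446 (20.8-fold), *Gm16168* at 268 (23.5-fold), *Gm36037* at 103 (23.6-fold), *Gm31084* at 55.6 (28.8-fold) and *4933400C23Rik* at 54.0 CPM (29.3-fold), with ratios of 61.3 (*Gm4107*) to 144 (*4933400C23Rik*) without those 400. *Gm31084* and *Srd5a2* start on the same chromosome, at chr17:74079046 and chr17:74047916, and their levels in the members were nearly alike. Whether reads of 1 were counted at the other was not tested. The genes with the smallest ratios were high in germ nuclei: *Gm14661*, *4930467D21Rik*, *Morc1*, *Glis3*, *Ccdc172*, *Sycp1*, *4930447C04Rik* and *Asz1* had ratios of 0.00656 to 0.0230.

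The members varied with their rank, which is the rule itself, so the following is a description. *Star* stood at 421, 339, 362 and 264 CPM over successive groups of 150 members and at 176 CPM in the next 150 nuclei. *Nr5a1* went from 473 to 356 CPM between the first and the last 150 members, and *Hmgcs1* from 1188 to 826 CPM. *Insl3* was level over the first 3 groups (109, 105 and 111 CPM) and stood at 71.9 CPM in the fourth. Progenitor genes went the other way: *Nr2f2* stood at 46.6, 58.0, 95.3 and 133 CPM and *Pdgfra* at 38.1, 62.1, 62.3 and 156 CPM. *Gata4* stood at 450.8 CPM in the first group and at 611 to 637 CPM in the others. The summed cell cycle list went from 446 to 1356 CPM and the collagen list from 1096 to 2090 CPM.

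Depth and doublet scores moved with the rank as well. The median UMI count was 9336 in the first 150 members, 10550 in the last 150 and 13640 in the next 150 nuclei, and the top doublet scores numbered 1, 2, 4, 7 and 32 over these 5 groups. Their part in the fall of Leydig genes and the rise of progenitor genes was not tested.

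**Figure D3:**
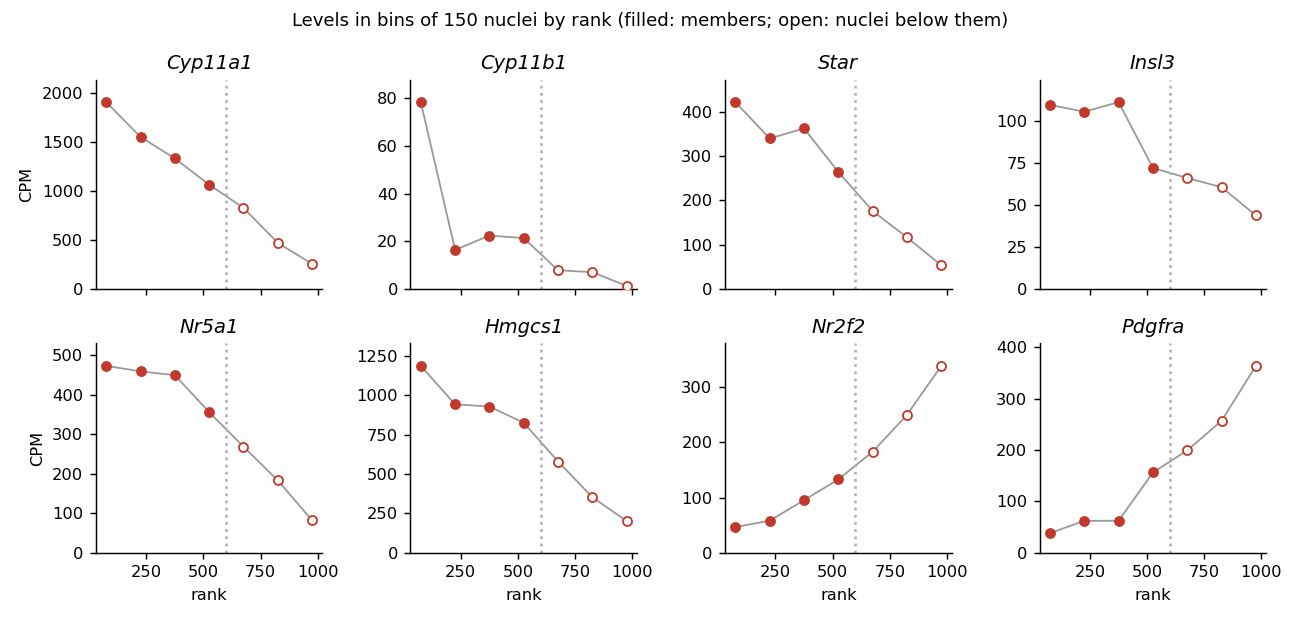
CPM of 8 genes in groups of 150 nuclei by rank (x axis, rank by share of UMIs in the rule genes), filled for members and open for the nuclei below them, with the dotted line at rank 600. *Cyp11b1* stood at 78.3 CPM in the first group and 16.4 in the second, *Star* at 421 and 339, and *Nr2f2* at 46.6 in the first and 133 in the last group of members.

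*Cyp11b1*, the 11β-hydroxylase that makes corticosterone in the adrenal and 11-oxygenated androgens in the testis, was a rule gene seen in only part of the members. It had a UMI in 81 members (13.5%, 10.9 to 16.5), against 1.16% of germ nuclei, and in these 81 nuclei it had 1 UMI in 41, 2 UMIs in 17 and 3 or more in 23, up to 18. When it was left out of the ranking, 79 of 600 nuclei (13.2%) still had it. The 81 nuclei were deeper than the other members (median 11963 against 9369 UMIs) and ranked higher (median rank 202 against 312), both of which make a UMI easier to find or follow from the rule. *Cyp21a1* stood at 28.9 CPM in them against 12.6 in the other members (2.30, 1.46 to 3.58), *Srd5a2* at 82.2 against 49.7 (1.65, 1.28 to 2.11) and *Star* at 448 against 319 (1.41, 1.27 to 1.56). *Insl3* was lower, at 66.3 against 104 CPM (0.638, 0.491 to 0.819), as was *Inha*, at 52.3 against 79.3 (0.660, 0.490 to 0.873). The progenitor genes *Nr2f2*, at 119 against 81.0 (1.46, 1.19 to 1.79), and *Pdgfra*, at 117 against 78.7 (1.48, 1.204 to 1.81), were higher in the 81 nuclei. *Mc2r* at 94.3 against 75.5 had an interval that included 1 (0.994 to 1.56). *Cyp11b1* and *Mc2r* were seen together in 48 members and *Cyp11b1* and *Cyp21a1* in 9. These counts were not set against the number expected from each gene alone.

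Both *Mki67* and *Top2a*, genes of dividing cells, had a UMI in 68 members (11.3%), against 34.5% of the other kept nuclei, 23.6% of the progenitors and 37% of the 200 nuclei just below. These 68 were deeper (median 13038 against 9425 UMIs) and ranked lower (median rank 410 against 286.5) than the other members. *Pdgfra* stood at 153 CPM in them against 73.2 (2.09, 1.71 to 2.53) and *Nr2f2* at 124 against 80.7 (1.54, 1.25 to 1.89), while *Nr5a1* stood at 358 against 442 (0.812, 0.723 to 0.910) and *Cyp11a1* at 1171 against 1472. *Cyp21a1*, unlike *Cyp11a1*, was higher in them, at 28.2 against 13.03 (2.17, 1.34 to 3.42), on 27 UMIs in these 68. *Insl3* was at 90.9 against 98.7, with an interval that included 1 (0.726 to 1.16). A UMI of both *Nr2f2* and *Nr5a1* was found in 223 members (37.2%). This is close to the share of members with *Nr2f2* at all, given above, and part of the germ nuclei had *Nr2f2* too.

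In the chromatin, 4639 of 67068 peaks with at least 100 cuts (6.92%) were at least 2-fold more open in the members than in the other kept nuclei, and 14670 (21.9%) at least 2-fold less open. These counts depend on the settings: the more open peaks numbered 1358 when fragments were counted, 2292 with a pseudocount of 5, and 9376 and 131 with a minimum of 20 and 400 cuts, and the less open ones 6027, 3439, 25866 and 1506. With fragments the minimum was 100 fragments, so fewer peaks were tested. The number tested with fragments or with another minimum is not given, so these counts cannot be read as shares. With 900 members they were 3075 and 6182. Read on fragments, which give a pair of cuts each, 4159 of the more open peaks (89.7%) had an interval above 1, but only 4961 of the less open ones (33.8%) an interval below 1. A less open peak held a median of 2 cuts in the members, so most of those calls rest on very few counts. The more open peaks took 8.35% of the cuts of the members, 2.57% of those of the others, 2.22% in the progenitors, 4.12% in Sertoli and 1.57% in germ nuclei. That the members lie above the others here follows from how the peaks were called. The intervals given above rest on the same counts as the calls.

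The more open peaks lay away from promoters, and so did the less open ones. A peak was at a promoter if within 1000 bp of the stretch from the first to the last listed start of a gene. Where the starts lie far apart this stretch is long, and 39 peaks counted at *Rora*. Of the more open peaks 17.0% were at promoters in this sense, 32.7% in introns and 36% between genes. All peaks tested had 33.1%, 24.7% and 32.3%. Of the less open peaks 18.3% were at promoters and 41.6% between genes. The median distance to the nearest coding start was 25843 bp for more open, 42820 bp for less open and 19140 bp for all peaks. The *Opcml* peak had 68 cuts in the members and 38 in all others, a fragment ratio of 31.8 (17.9 to 57.9). The *Kit* peak had 55 against 52 cuts (18.3, 10.5 to 31.9) and a peak at 2102 bp from the start of *Crhr1* 77 against 89 (15.4, 9.96 to 23.9). The other leading peaks lay near *Ssu2* (19.7), in an intron of *Dip2a* (19.7) and near *Net1* (18.3). At the other end, 4 peaks had 0 cuts in the members and 450 to 530 in the other nuclei, with the upper bounds of their fragment ratios at 0.2402 to 0.2818.

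At the rule genes themselves, the *Cyp11a1* promoter peak (chr9:58014416-58015386) had 54 cuts in the members and 65 in the others, which is 35.3 against 2.41 cut CPM, with 0.944 in the progenitors and 0 in germ nuclei. Its fragment ratio was 15.0 (8.72 to 25.6). The ratio was 7.02 (4.47 to 10.8) at *Cyp17a1* and 4.24 (2.60 to 6.67) at *Lhcgr*. At *Scarb1* it was 1.44 (1.01 to 2.01), where the promoter was open in every set, with 25.5 cut CPM in the progenitors, 49.0 in the members and 58.2 in the 200 nuclei just below them. *Hsd3b1*, *Hsd3b6*, *Cyp11b1* and *Insl3* had no peak within 1000 bp. Counted directly within 2 kb of the start, *Insl3* had 27.3 cut CPM in the members against 6.29 in the others. At *Hsd3b1* the values were 10.45 against 2.06, but the members had 1 cut in each 100-bp bin beside the start and the most, 18, in the bin centred 1450 bp downstream. By rank, the 4 promoter peaks of rule genes together had 201, 188, 131 and 112 cut CPM over the groups of 150 members and 105 in the next 150 nuclei. The *Nr5a1* promoter peaks had 175, 235.5, 211 and 239.8 cut CPM in the members and 126, 136 and 112 in the next 3 groups. Those of *Nr2f2* had 95.7, 50.3, 74.0 and 66.1 in the members and 54.9, 98.2 and 99.9 below them.

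The *Star* promoter peak had a ratio of 3.72 (2.17 to 6.07). *Nr5a1* had 3 promoter peaks, of which the one at chr2:38711662-38712512 was alike in the members and the others (1.14, 0.768 to 1.62) and the one at chr2:38714155-38715086 stood at 144 against 40.9 cut CPM (3.46, 2.80 to 4.23), with 46.7 in the progenitors and 11.4 in germ nuclei. *Gata4*, whose RNA ratio lay near 1, had 21.4 cut CPM around its start in the members, 18.8 in the others and 18.9 in the progenitors. At *Nr2f2*, whose RNA was low, each promoter peak had an interval that included 1 (0.762, 0.552 to 1.03, and 0.764, 0.362 to 1.43), but together they had a ratio of 0.762 (0.571 to 0.9986) to the others and 0.573 (0.410 to 0.790) to the progenitors. *Srd5a2* had 12 cuts within 2 kb of its start in the members, 2.73 cut CPM against 2.72 in the others, so its RNA ratio of 32.3 had no counterpart at the start in these counts.

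**Figure D4:**
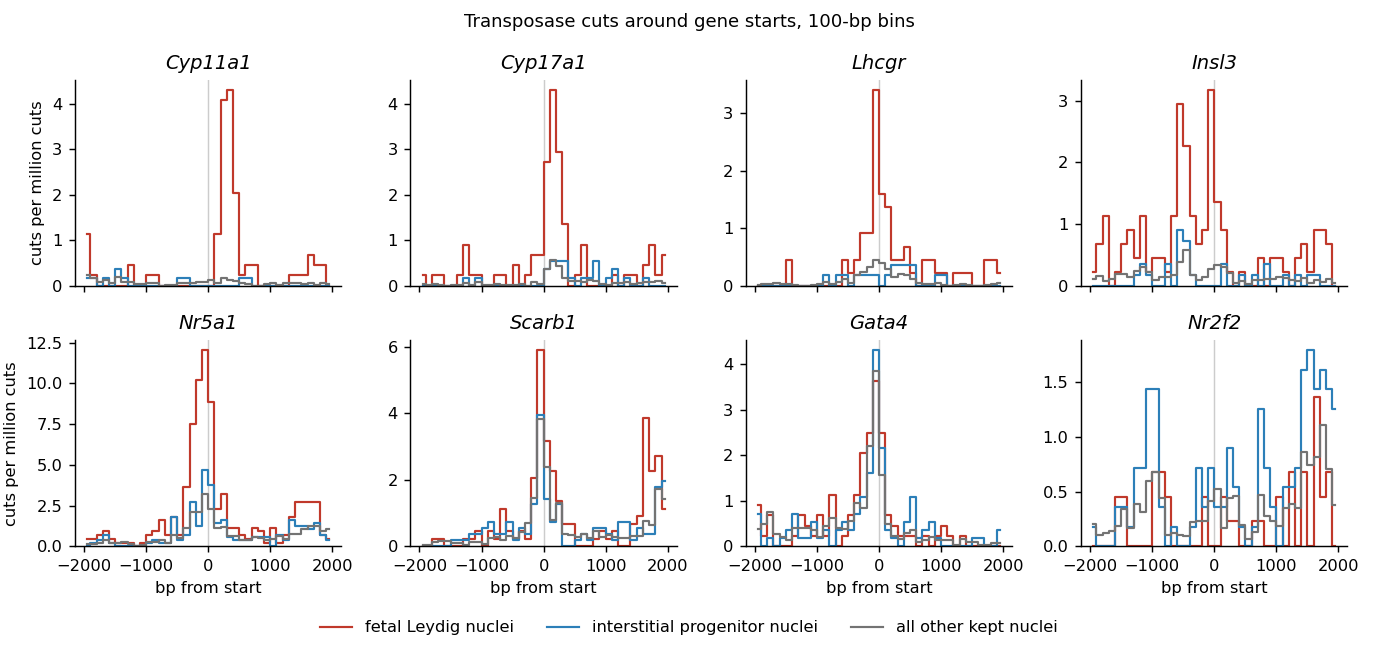
Cut CPM in 100-bp bins (y axis, each gene on its own scale) against distance from the gene start (x axis, bp) for the fetal Leydig nuclei in red, the interstitial progenitor nuclei in blue and all other kept nuclei in grey. Within 2 kb of the start, the Leydig nuclei had 17.3 cut CPM at *Cyp11a1* against 1.80 in the progenitors, 79.5 against 32.7 at *Nr5a1*, and 8.86 against 23.7 at *Nr2f2*. Windows lie at the most upstream listed start. At *Nr2f2* the window held 39 cuts of the Leydig nuclei and left out the larger promoter peak, which had 88. That peak stood at 57.5 cut CPM in the Leydig nuclei and 92.5 in the progenitors, per cuts in peaks.

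A wider window was read beside the RNA. It reached 50000 bp to either side of the stretch from the first to the last listed start of a gene. Among the 1068 genes higher in RNA outside the rule, 52.9% had a more open peak in it. The share was 18.5% of the genes lower in RNA and 27.8% of all genes tested. A less open peak lay in the same window of 41.01%, 60.5% and 48.5% of the genes of these 3 groups. More open peaks numbered 4 of 15 at *Cyp11a1*, 5 of 6 at *Lhcgr*, 6 of 13 at *Nr5a1*, 5 of 17 at *Insl3*, 4 of 15 at *Scarb1* and 4 of 9 at *Kcnip4*, while *Nr2f2* had 0 of 12 and *Srd5a2* 0 of 1. Less open peaks numbered 2 each at *Cyp11a1*, *Nr5a1* and *Nr2f2*, 1 each at *Scarb1* and *Kcnip4*, and 0 at *Lhcgr*, *Insl3* and *Srd5a2*. Over all genes tested, 6.15% of the peaks in such windows were more open and 14.4% less open. A count of 0 more open among 12 or fewer peaks, or of 1 or 2 less open, does not set a gene apart from these shares. Of genes higher in RNA, *Thrb* had 0 of 4 and *Esrrg* 0 of 7 more open, and *Rora* 4 of 23 more open and 6 less open. These counts leave out peaks under 100 cuts. Over all promoter peaks of a gene together, with such peaks included, the fragment ratio was 2.29 (1.795 to 2.88) at *Thrb*. It was 0.978 (0.7335 to 1.28) at *Esrrg* and 1.17 (1.01 to 1.35) at *Rora*. Promoters moved less: the median log2 ratio over promoter peaks was 0.30 for 937 genes higher in RNA, -0.25 for genes lower and 0.04 for all. For the cholesterol synthesis genes it was 0.42, with all 20 above 0, against 54.2% of all genes tested, and none at 2-fold more open, against 1.035% of all. At *Hmgcs1* the promoter had a ratio of 1.22 (0.964 to 1.52), an interval that included 1, against an RNA ratio of 8.17.

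The letters AAGGTCA or their reverse complement TGACCTT were in the central 300 bases of 24.9% (23.7 to 26.2) of the more open peaks, 8.32% of the less open peaks and 9.72% of all peaks tested. The longer TCAAGGTCA was in 4.74% (4.15 to 5.39), 2.22% and 2.34%. Median GC content was close in the 3 groups, at 50.3%, 49.7% and 52.3%. In introns and between genes alone, the shorter letters were in 26.8% of more open, 8.96% of less open and 12.4% of all peaks. By openness, the share of all peaks with the shorter letters was 7.79% to 9.37% in the peaks under 2-fold more open, 24.0% between log2 ratios of 1 and 2, 30.3% between 2 and 3, and 23.7% (11.4 to 40.2) in the 38 peaks above 3, where none held the longer letters.

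Other letters were searched after the values above were known. The GATA letters AGATAA were in 23.1% of the more open, 18.5% of the less open and 14.9% of all peaks, and the E-box CAGCTG in 34.1%, 34.8% and 28.8%. The AP-1 letters TGANTCA were in 10.2%, 8.84% and 7.91%, and the TEAD letters GGAATG in 17.7%, 21.7% and 17.8%. The GATA letters had a share in the more open peaks above both other groups beyond the counting intervals, also in introns and between genes alone. For the AP-1 letters this held over all peaks but not in introns and between genes, where the shares were 10.9% (9.79 to 11.98), 9.54% (8.99 to 10.1) and 9.73%.

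**Figure D5:**
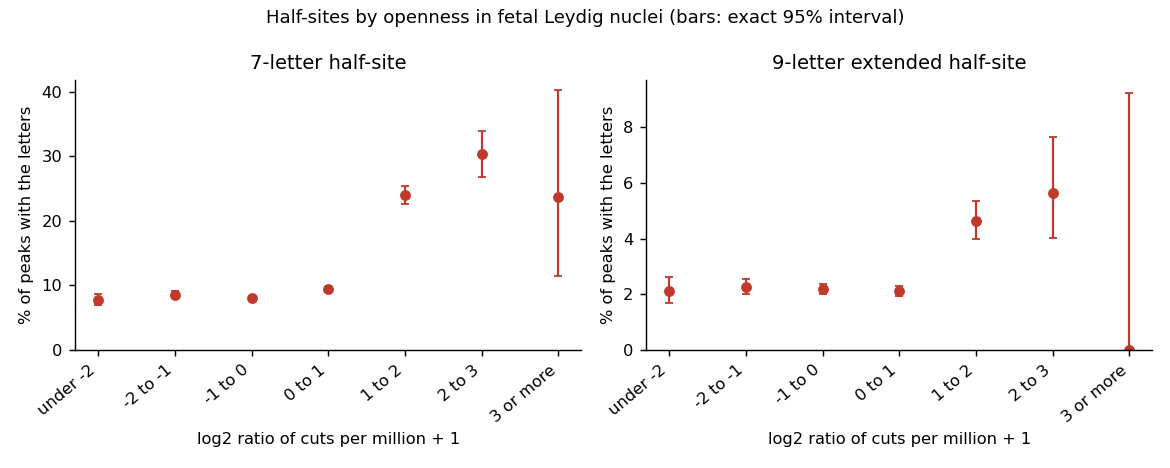
Share of peaks (%) whose central 300 bases hold the letters AAGGTCA (left) or TCAAGGTCA (right) on either strand, by the log2 ratio of cut CPM + 1 between the fetal Leydig nuclei and all other kept nuclei, with exact 95% intervals. The share with AAGGTCA was 9.37% in the bin from 0 to 1 and 24.0% in the bin from 1 to 2, and 23.7% in the last bin, which held 38 peaks.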

How the data were processed

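RNA and open chromatin of nuclei from whole E14.5 mouse testes were read in 1 RNA and 1 ATAC library. The authors aligned and counted them with Cell Ranger ARC (version 2.0.1, genome build mm10, per the labels) and deposited raw counts: UMIs per gene (introns and exons) and Tn5 cut sites per peak, for 1 peak set made from all nuclei, and a list of fragments with their read counts. The deposited feature table holds other values, the positions of gene starts and peaks. Introns are counted, so levels were not compared between genes, apart from the remark on *Gm31084* and *Srd5a2*. The study's later filters, doublet and ambient RNA removal were not applied to the deposited matrix. The matrix held 32285 genes and 109215 peaks. Of its barcodes, 259 were under the UMI minimum, 200 over the maximum, 972 at or over the mitochondrial limit and 1198 at or under the cut minimum, counted separately.

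The members and gene lists were chosen with earlier results of these data known. Counts were summed per set of nuclei and scaled to a total of 1000000 per set (CPM, UMIs for genes and cuts for peaks). A gene or peak was called at a 2-fold ratio on the log2(value + 1) scale if it had at least 100 counts. Intervals were exact Poisson for levels, conditional binomial for ratios and Clopper-Pearson for shares, at 95%, and PCR and pooling are not in them. Of the nonzero peak values, 87.1% were even, since a fragment adds a pair of cuts, so intervals for peaks were taken on fragments. Comparison sets were the top 600 by their genes, without the 94 nuclei that fell in 2 sets. The genes named were the 12 largest and 8 smallest ratios at 50 CPM or more, the extremes of each list, and others chosen after their values were seen. Some members of the lists count in the totals but are not reported here. Doublets were scored with Scrublet in scanpy (version 1.11.5) and kept. Sequences were read from GRCm38 and the RefSeq promoter table. Scripts used Python 3.11.15, numpy 2.4.6, scipy 1.17.1, pandas 2.3.3 and matplotlib 3.10.9 and were tested on simulated counts.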

Additional observations from a re-analysis of the deposited data

How the results depend on the processing

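Each count and share was recomputed with 300 or 900 members, other pseudocounts and minimum counts, fragments in place of cuts, other filters on nuclei, the nuclei just below left out, and the counts divided so that 1 part chose the members and the other was measured. Of 191 such values, 176 stayed within 1.5 times the main count, or the counting interval of the main share, and 15 did not. A change of direction was not defined for these counts and shares. Of 715 single ratios, 443 stayed within the counting interval of the main value, 272 left it and 0 reversed. The cholesterol synthesis list had all 20 genes higher and the transcription factor list 8 in every alternative.

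With 900 members, 2076 genes were lower, 9 collagens were lower, 3075 peaks were more open and 6182 less open. With 300 members, TCAAGGTCA was in 3.88% of 6315 more open peaks, against 2.34% of all peaks. With a pseudocount of 5, 1851 genes were lower, 2292 peaks more open and 3439 less open. A minimum of 20 cuts gave 9376 and 25866 peaks, a minimum of 400 cuts 131 and 1506, and fragments in place of cuts 1358 and 6027. With the 7 letters in place of the 9, the share was 24.9%. Counts of peaks therefore depend on the minimum, which sets how many peaks are tested, and on the pseudocount. Without the nuclei just below the members, 1110 genes were higher and 3418 lower, and with the counts divided 1092 and 3437.

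No paired analysis was possible because there is 1 library of each kind and no test was made. There was no replicate, so the spread between animals is unknown. The members had fewer cuts than the other nuclei, which limits the less open peaks.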
